A study of Mus musculus with 12 samples.

Results

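The same 3 Omni-ATAC-seq libraries of mouse embryonic stem cells (mESCs) were read by 2 instruments, the DNBSEQ-G400 of BGI and the HiSeqX10 of Illumina, and their counts were compared library by library on all 67063 mESC peaks. The comparison used 6 of the 12 samples of the series, namely the BGI and the Illumina sample of libraries 1, 3 and 5, chosen by their cell type label and paired by library number. The other 6 samples, libraries 1, 2 and 4 of mouse embryonic fibroblasts (MEFs), were used only for the contrast between cell types. All cells had a C57/Bl6 background, and the labels name no treatment. The mESCs had been sorted as THY1-/SSEA1+/EPCAM+ and the MEFs as THY1+ cells, each library came from a separate biological replicate, and its DNA was divided between the instruments. BGI reads were 100 bp long. The 150 bp reads from Illumina had been shortened to the same length.

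In ATAC-seq, the transposase Tn5 inserts sequencing adapters where DNA is not wrapped in nucleosomes, so that read counts mark promoters, enhancers and insulators. Promoters of widely expressed and of developmental genes in mammals mostly lie in CpG islands, stretches rich in guanine, cytosine and unmethylated CpG, while promoters of tissue-restricted genes and most enhancers have fewer CpG. In mESCs a network around Pou5f1, Sox2 and Nanog, with Esrrb, Klf4 and Nr5a2, keeps the pluripotent state and binds many of the distal sites. In bulk cells, a lower count does not tell fewer cells with an open site from a less open site in each cell, but here both instruments read DNA of the same library.

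Between 15692254 and 17133417 reads per sample fell in the peaks, and the median peak held 164 to 169 reads. The labelled cell type was reflected in its markers: promoter peaks of the 10 mESC markers examined summed to 206 to 262 CPM (counts scaled to library size) in the mESC samples and to 92.5 to 131 CPM in the MEF samples, with 8 of 10 higher in mESCs. Of the 12 fibroblast markers, 8 had a promoter peak in the mESC set, and these summed to 78.2 to 93.1 CPM in mESC and 326 to 390 CPM in MEF samples, with 0 of 8 higher in mESCs. Open chromatin at a promoter does not measure expression.

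Most peaks lower on BGI were promoters, and most of the higher ones were not. By edgeR's quasi-likelihood test with library as a block and Benjamini-Hochberg adjustment, 10431 of 67063 peaks (15.6%) were lower and 3873 (5.78%) were higher on BGI, or 21.3% in either direction. Promoter peaks, those no farther than 1000 bp from a transcription start site (TSS) in the annotation, made up 39.7% of all peaks, 87.8% of the lower and 22.7% of the higher peaks. Intronic and intergenic peaks made up 52% of all peaks and 69.7% of the higher ones. Without the library block 2164 peaks (3.23%) were called, 28 of them higher, and DESeq2 called 135 peaks higher and 3422 lower. A fit that removed a smooth trend on GC content from each sample called 5766 peaks (8.6%), with 2920 higher (4.35%) and 2846 lower (4.24%), so that 50.6% of its calls were higher, against 27.1% without the GC term.

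The sizes were small for most peaks. All ratios are given as log2 BGI/Illumina, with negative values lower on BGI, and class values are the median over peaks in each library followed by the mean ± SD of the 3 libraries. Without library 1, 3 or 5 the fit called 8675, 7143 or 8452 peaks lower and 2501, 1975 or 2177 higher. The median over all peaks was 0.000 ± 0.0034 (SD, n = 3), a value that the scaling of the samples brings about. The lower and upper quartiles of the log2 difference were -0.13 and 0.12. A log2 difference of at least 0.5 in size was reached by 2092 called peaks, of which 1918 were lower and 174 higher. Of these 1918, 1771 were promoter peaks.

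Among location classes, promoter peaks had medians of -0.10, -0.11 and -0.13 in libraries 1, 3 and 5. Intronic peaks had 0.069, 0.078 and 0.083, intergenic peaks 0.053, 0.061 and 0.062, and exonic peaks 0.027, 0.025 and 0.018. Each of the 3 libraries therefore showed the same order, and the difference between promoter and other peaks, -0.17 ± 0.017 (SD, n = 3) was larger than the spread between libraries. Of the 26596 promoter peaks 34.4% were lower and 3.30% higher, against 3.15% lower and 7.40% higher among the 40467 other peaks.

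**Figure D1:**
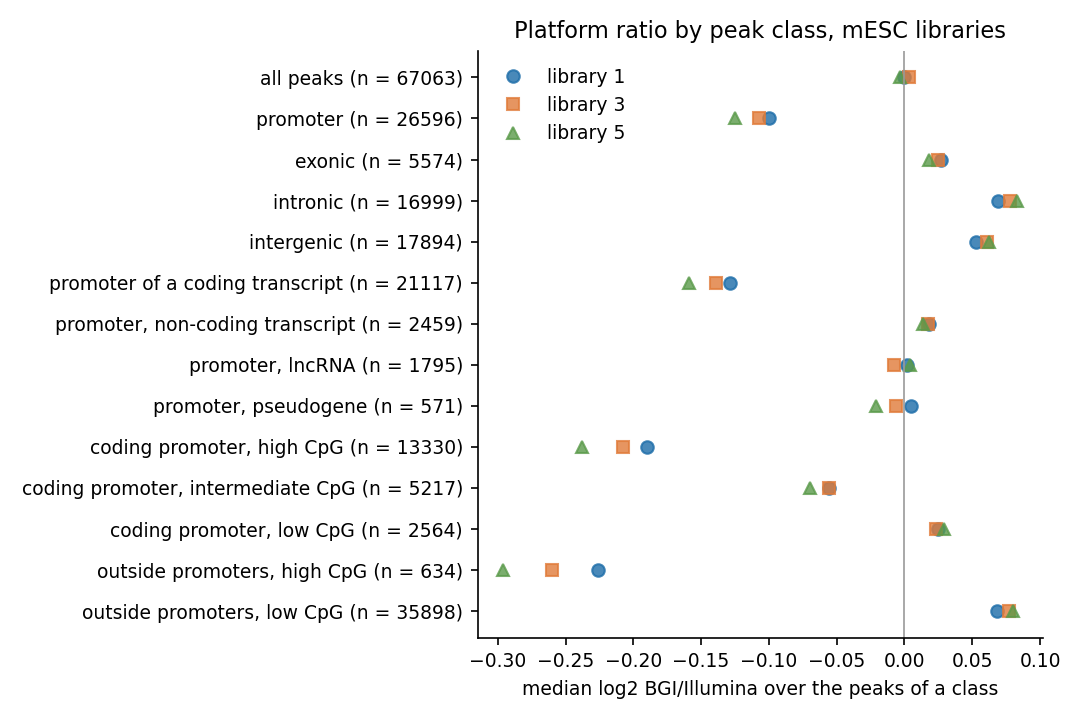
Median log2 BGI/Illumina (horizontal axis) of the peaks of each class, with 1 point for each of the 3 mESC libraries; n is the number of peaks. High-CpG classes lie at -0.19 or below in all 3 libraries, inside promoters and outside them, while low-CpG classes lie above 0.

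Shares of reads moved accordingly. Promoter peaks took 53.8%, 56% and 53.6% of the reads in peaks on BGI and 56.6%, 58.9% and 57% on Illumina, in libraries 1, 3 and 5. The BGI share was lower in 3 of 3 libraries, by -3.06 ± 0.30 percentage points (SD, n = 3). Intronic peaks gained 1.47 ± 0.15 points and intergenic peaks 1.36 ± 0.14 points. High-CpG promoters of coding genes took 32.8% ± 1.38 on BGI and 36.2% ± 1.33 on Illumina, a relative change of -9.30%. The 3290 peaks above 70% GC took 6.83% ± 0.36 and 8.75% ± 0.41, a relative change of -21.9%.

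Promoter types differed. Each promoter peak was given a single type, and a peak near both a coding and a non-coding TSS was counted as coding. The non-coding types therefore hold only peaks with no coding TSS within 1000 bp. Non-coding promoters that share a peak with a coding gene were not examined separately. Promoters of coding transcripts (21117 peaks) had a median of -0.14 ± 0.015, with 40.7% lower and 2.62% higher. Promoters of non-coding transcripts of coding genes (2459 peaks) had 0.016 ± 0.0021, with 8.78% lower. Promoters of long non-coding RNAs (1795 peaks) had -0.001 ± 0.0063, with 11.5% lower, and those of pseudogenes (571 peaks) -0.007 ± 0.013, with 14.5% lower. The shares lower at all 3 non-coding kinds lay below the 15.6% of all peaks. The microRNA promoters (185 peaks, 0.004 ± 0.0052) and small nucleolar RNA promoters (74 peaks, 0.006 ± 0.013) also had medians near that of all peaks. Small nuclear RNA promoters (91 peaks) had 0.042 ± 0.016, with 10 higher and 6 lower, and promoters of other small RNAs (50 peaks) 0.081 ± 0.0033, with 7 higher and 2 lower, where 3.30% of all promoter peaks were higher. With the GC trend removed the former turned to -0.031 ± 0.020, with 0 higher and 8 lower, and the latter had 0.034 ± 0.0037, with 1 higher and 0 lower. Median GC content was 61.6% in coding promoters and 52.9% to 54.3% in the non-coding transcript, long non-coding RNA and pseudogene promoters.

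Coding promoters were divided by the CpG content of windows of 500 bp around the TSS. A high-CpG promoter has a window with at least 55% GC and an observed/expected CpG ratio of at least 0.75, and a low-CpG promoter has no window above 0.48. The 13330 high-CpG promoter peaks had medians of -0.19, -0.21 and -0.24 in libraries 1, 3 and 5, and 55.8% of them were lower on BGI. The 5217 intermediate ones had -0.061 ± 0.0078, with 19.3% lower. The 2564 low-CpG ones had 0.026 ± 0.0029, with 5.54% lower and 6.12% higher. High-CpG minus low-CpG promoters gave -0.24 ± 0.026 (SD, n = 3).

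The same division held outside promoters, by the CpG content of the peak itself. The 634 distal peaks in the high-CpG class had a median of -0.26 ± 0.035, with 60.4% lower and 0.315% higher. The 35898 distal low-CpG peaks had 0.075 ± 0.0064, with 1.30% lower and 7.92% higher. CpG-rich distal peaks thus had a lower ratio than all promoter peaks.

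GC content of the peak ordered the ratio more finely. From 40% to 50% GC the median was 0.083 to 0.084, from 55% to 60% it was -0.010 ± 0.0063, from 65% to 70% it was -0.25 ± 0.028 and from 75% to 80% it was -0.58 ± 0.054. Above 80% GC all 107 peaks were lower, with a median of -0.75 ± 0.084. Between 65% and 70% GC, promoter peaks (-0.25 ± 0.029) and other peaks (-0.24 ± 0.032) differed by less than the SD between libraries, and so they did between 70% and 75% GC (-0.39 ± 0.042 and -0.38 ± 0.065). Within libraries 1, 3 and 5 the promoter peaks of 65% to 70% GC were slightly lower each time, at -0.224, -0.244 and -0.280 against -0.205, -0.234 and -0.269. From 70% to 75% GC the order was not the same in each library. Between 75% and 80% GC the 24 other peaks, at -0.63 ± 0.052, lay below the promoter peaks, at -0.58 ± 0.055. Between 45% and 50% GC promoter peaks had 0.050 ± 0.0085 and other peaks 0.090 ± 0.0096, a gap larger than either SD. The gap was as large between 55% and 60% GC (-0.034 ± 0.0079 and 0.015 ± 0.0058), and between 60% and 65% GC the values were -0.14 ± 0.015 and -0.10 ± 0.020.

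**Figure D2:**
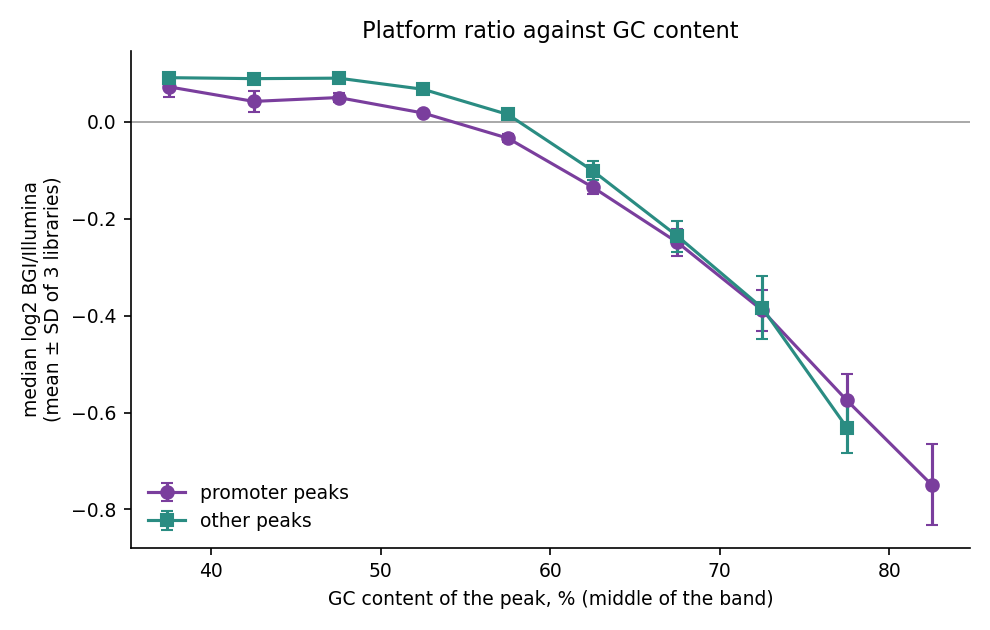
Median log2 BGI/Illumina (vertical axis, mean ± SD of 3 libraries) in bands of GC content (horizontal axis, %), for promoter peaks and other peaks; bands with under 20 peaks are left out. The curves run together from 65% to 75% GC, and between 40% and 65% GC the promoter peaks lie under the other peaks.

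After removal of the GC trend the class medians came close to 0: -0.005 ± 0.00087 for promoters, 0.013 ± 0.0020 for other peaks, -0.019 ± 0.0031 for high-CpG and 0.019 ± 0.0071 for low-CpG promoters. The differences kept their sign, at -0.019 ± 0.0021 for promoter minus other peaks and -0.038 ± 0.0079 for high-CpG minus low-CpG promoters. Of the peaks called without the GC term, 2415 stayed lower and 1167 stayed higher, while 441 lower ones were called higher with it.

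Within a narrow band of 66% to 70% GC (3653 peaks, median -0.26 ± 0.029), other features still went with the ratio. Ranked by observed/expected CpG and cut into 4 equal parts, the lowest part had -0.22 ± 0.023 with 53.7% lower and the highest -0.32 ± 0.034 with 86.6% lower. Ranked by count, the lowest part had -0.33 ± 0.027 and the highest -0.19 ± 0.026. Coding promoter peaks centred over 250 bp downstream of the TSS had -0.36 ± 0.034, those centred over 250 bp upstream -0.32 ± 0.025 and those within 250 bp of it -0.23 ± 0.028. Which of these features carries the others was not tested.

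Position along the promoter showed in all 3 CpG classes. High-CpG promoter peaks centred 0 to 100 bp upstream of the TSS (4389 peaks) had -0.19 ± 0.025, and those centred 250 to 500 bp downstream (1026 peaks) had -0.33 ± 0.029. For intermediate promoters the values were -0.028 ± 0.011 and -0.16 ± 0.030. For low-CpG promoters they were 0.046 ± 0.0038 and -0.045 ± 0.0033, a change of sign. With the GC trend removed, all coding promoter peaks together had 0.028 in the first window and -0.069 in the second.

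**Figure D3:**
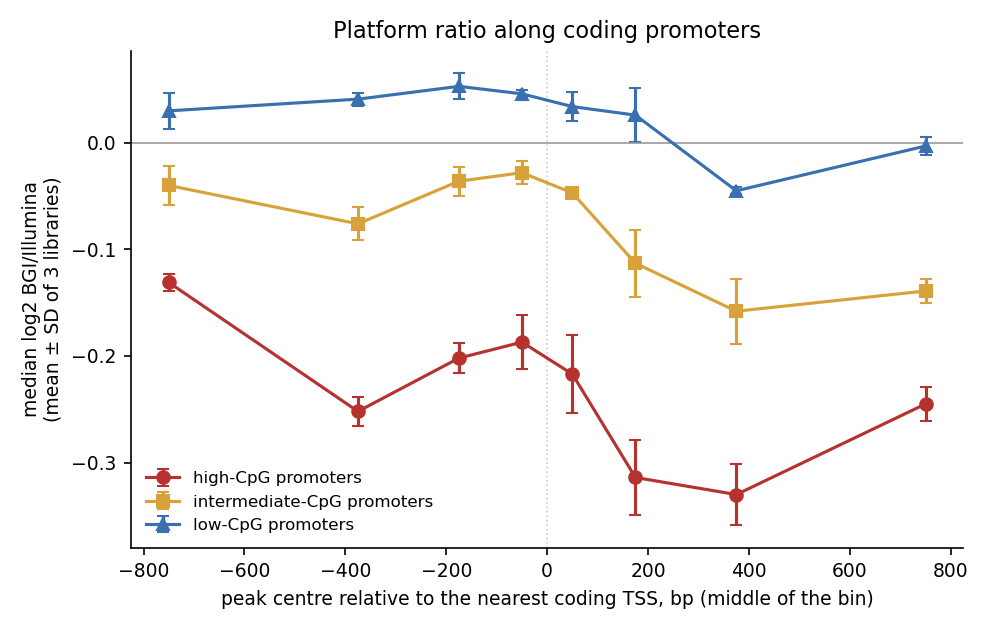
Median log2 BGI/Illumina (vertical axis, mean ± SD of 3 libraries) by the distance of the peak centre from the nearest coding TSS (horizontal axis, bp, negative upstream), for the 3 CpG classes of coding promoters. Each class reaches its lowest value 250 to 500 bp downstream of the TSS.

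Other promoter features were also compared. Bidirectional promoters, with divergent coding TSSs within 1 kb (1442 peaks), had -0.14 ± 0.015 and the remaining coding promoters -0.14 ± 0.016. Promoters with TATAAA on the coding strand between 40 and 15 bp upstream of the TSS (207 peaks) had -0.12 ± 0.016 with 32.9% lower, against -0.14 ± 0.015 with 40.7% lower without it. Peaks with a guanine quadruplex pattern on either strand (8644 coding promoters) had -0.22 ± 0.019 against -0.098 ± 0.013 without one, and 0.006 ± 0.0053 against -0.017 ± 0.0061 after removal of the GC trend. Coding promoter peaks with the GC box GGGCGG on either strand, 70.8% of them, had -0.18 ± 0.019, and those with the CCAAT box, 45.2% of them, had -0.096 ± 0.013. These 2 sets overlap.

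Distal peaks holding letters bound by pluripotency factors had medians of 0.055 to 0.073, beside 0.062 ± 0.0049 for all distal peaks. The octamer ATGCAAAT of Pou5f1, on either strand, lay in 4.51% of distal peaks with sequence, which had 0.070 ± 0.014. The Esrrb letters TCAAGGTCA lay in 2.45%, with 0.064 ± 0.0078, and the Sox letters CATTGT in 24.2%, with 0.073 ± 0.0073. Peaks with the Klf letters GGGNGTGG, 27.7% of the distal ones, had 0.055 ± 0.0069 and a GC content of 51.4%. A match of letters is no binding site, and one peak can hold several.

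Promoter sequences from both sides of the ratio are shown as the 200 bp upstream of the TSS from GRCm38.p6, written in the direction of transcription and with each CpG in capitals. Gmeb1, among the most affected promoters, encodes a factor that binds glucocorticoid modulatory elements. Klf4, a core pluripotency factor, was the most affected promoter among the 6 core genes. Zfp42, a classical stem cell marker also called Rex1, is shown as a promoter that was higher on BGI.

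The windows are chr4:132261603-132261802, minus strand for Gmeb1, chr4:55532467-55532666, minus strand for Klf4 and chr8:43306981-43307180, minus strand for Zfp42, and they hold 17, 25 and 9 CpG.
Gmeb1: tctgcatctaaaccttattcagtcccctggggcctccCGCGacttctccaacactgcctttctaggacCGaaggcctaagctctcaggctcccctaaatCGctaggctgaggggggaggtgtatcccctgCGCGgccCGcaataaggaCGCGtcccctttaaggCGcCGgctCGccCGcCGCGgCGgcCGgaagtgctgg
Klf4: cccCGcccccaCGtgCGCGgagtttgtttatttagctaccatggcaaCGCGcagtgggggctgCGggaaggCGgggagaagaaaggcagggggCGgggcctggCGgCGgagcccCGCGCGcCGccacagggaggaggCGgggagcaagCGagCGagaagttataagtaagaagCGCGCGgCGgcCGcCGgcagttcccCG
Zfp42: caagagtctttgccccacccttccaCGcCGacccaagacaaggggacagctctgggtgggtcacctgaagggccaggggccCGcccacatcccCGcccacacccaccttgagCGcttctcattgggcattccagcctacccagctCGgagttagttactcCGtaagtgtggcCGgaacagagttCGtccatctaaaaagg

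Zbtb10, a zinc finger repressor, had the largest difference on the lower side. Its peak (chr3:9250733-9251234, 79.9% GC, centred 381 bp downstream of the TSS) had 4.08, 4.27 and 3.88 CPM on BGI and 9.84, 11.3 and 9.53 CPM on Illumina in libraries 1, 3 and 5. The groups did not overlap, and BGI was 2.51-fold lower (log2 difference -1.33 ± 0.12 SE, adjusted p = 1.38e-21, edgeR quasi-likelihood test). The Gmeb1 peak (chr4:132261357-132261858, 74.1% GC) had 5.2, 7.47 and 5.81 CPM on BGI and 11.2, 16.7 and 17.2 CPM on Illumina. Its log2 difference was -1.29 ± 0.10 SE (adjusted p = 4.17e-28, edgeR) and stayed at -0.81 with the GC term.

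The 10 lower peaks with the largest differences, among called peaks with at least 2 CPM and 1 sign in 3 of 3 libraries, were all high-CpG coding promoters with 74.1% to 84.7% GC. Besides Zbtb10 and Gmeb1 they were Med13l (-1.30), a Mediator subunit gene, Zbtb18 (-1.30), a transcriptional repressor gene, Zmym5 (-1.28), Samd1 (-1.25), whose product binds unmethylated CpG islands, Zfp618 (-1.23), Nfix (-1.21), a nuclear factor I gene, Egln1 (-1.21), the oxygen-sensing prolyl hydroxylase, and Phf2 (-1.19), a histone demethylase gene. BGI and Illumina samples did not overlap at any of the 10, which their choice by size and sign made likely, where 18.5% of all peaks showed no overlap. With the GC term all 10 were still lower, at -0.81 to -0.42. In MEF libraries the ratios at these peaks lay between -1.80 and -0.81. Of the 10, 7 were listed as reproducible on Illumina only and 1, Gmeb1, on BGI only, so that for the 7 the Illumina count decided their presence in the peak set.

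The peaks higher on BGI looked different. Of the 10 with the largest differences 0 were promoters: 4 were intronic, 4 intergenic and 2 exonic. The first, an intronic peak nearest to the neurexin family gene Cntnap5b (chr1:100179901-100180402, 42.2% GC), had 12.3, 11.3 and 10.7 CPM on BGI and 2.96, 2.05 and 2.23 CPM on Illumina. BGI was 4.73-fold higher (log2 2.24 ± 0.14 SE, adjusted p = 2.78e-43, edgeR), and its ratios in MEF libraries 1, 2 and 4 were 2.03, 1.77 and 1.61. An intergenic peak at -253015 bp from the TSS of Igfbp7 had 4.76, 7.41 and 6.54 CPM on BGI and 1.83, 3.38 and 1.67 CPM on Illumina (log2 1.44 ± 0.16 SE, adjusted p = 1.58e-15, edgeR). The remaining 8, named by the nearest coding gene, lay at Cited2 (0.94), Dnajc13 (0.92), Immp2l (0.90), Alkbh8 (0.83), Ano4 (0.82), Gm28285 on chromosome 18 (0.79), Ipo11 (0.75) and Top2b (0.74). Of the 10, 8 were listed as reproducible on BGI only, so that their presence in the peak set itself turned on the BGI count.

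Gene lists were compared by the promoters of their members. For each gene the promoter peak with the highest count was used, and each list is given by the median log2 difference of the paired fit with its calls, beside the median of -0.10 over all promoter peaks and their 34.4% lower and 3.30% higher. The counts are not matched: the median peak held 248 reads over all promoter peaks and from 175 (Hox) to 785 (housekeeping) in the lists. The share called lower rose from 1.33% in the tenth of all peaks with the lowest counts to 38.5% in the highest. Some lists were built by symbol patterns and hold loose matches. Because the members were chosen with earlier results of these data known, the counts are descriptions.

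Lists of chromatin regulators had medians below that of all promoters. Of the 29 Polycomb subunit genes, whose complexes silence developmental genes, 23 promoters were lower and 0 higher (median -0.23, 68.7% GC). Rybp had 22.4, 26.8 and 21 CPM on BGI and 42.5, 45.5 and 40.4 CPM on Illumina (-0.87), and the PRC1 subunit gene Bmi1 14, 15 and 15 against 21.7, 27.1 and 22.9 CPM (-0.71). Neither overlapped between platforms. Of the 25 genes of the BAF remodeller, which slides and evicts nucleosomes, 18 were lower and 0 higher (median -0.28), led by Phf10 (-0.88), Arid1b (-0.79) and Smarcc2 (-0.73). Of 14 DNA methylation genes 9 were lower and 0 higher (median -0.25), among them the de novo methyltransferases Dnmt3b (-0.51) and Dnmt3a (-0.42). After removal of the GC trend 6 Polycomb promoters were higher and 2 lower, 2 BAF promoters were higher and 0 lower, and 1 DNA methylation promoter was higher and 0 lower, beside 7.50% higher and 7.78% lower over all promoter peaks.

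Signalling and developmental lists also had medians below that of all promoters. Of 27 genes of LIF, FGF, Wnt and BMP signalling 16 were lower and 1, Tcf7l1, a Wnt effector, was higher (0.14), with a median of -0.24. Lifr, the receptor of the cytokine LIF that keeps mESCs undifferentiated, had 18.9, 18.8 and 15.7 CPM on BGI and 29.6, 30.8 and 27.8 CPM on Illumina (-0.72). Its kinase Jak2 (-0.69) and Ctnnb1 (-0.62), which encodes beta-catenin, were lower as well, but with the GC term neither was called, at 0.060 and 0.049. Of 165 developmental factor promoters 89 were lower and 2 higher (median -0.22), with Wnt9a (-0.81), Fgf16 (-0.80) and Foxl2 (-0.66) lowest and Lhx3 (0.21) and Gata3 (0.13) higher. Of the 32 Hox promoter peaks 15 were lower, led by Hoxd8 (-0.97), and 1, Hoxa9 (0.35), was higher. Of 17 AP-1 and immediate early genes 11 were lower and 0 higher, with Nr4a1 (-0.36) lowest. After removal of the GC trend 3 signalling promoters were higher and 4 lower, 6 developmental factor promoters higher and 8 lower, 2 Hox promoters higher and 3 lower, and 2 AP-1 and immediate early promoters higher and 2 lower. Over all promoter peaks the shares were 7.50% higher and 7.78% lower.

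Genes of basic cell functions lay closer to all promoters. Of 81 ribosomal protein promoters 16 were lower and 1 higher (median -0.095), with Rpl10a at -0.43 and Rps19 at 0.13. Of 99 respiratory chain promoters 32 were lower and 2 higher (-0.048), of 40 proteasome promoters 14 and 2 (-0.11), of 31 splicing factor promoters 12 and 0 (-0.10), of 65 translation factor promoters 25 and 0 (-0.12) and of 95 replication and cell cycle promoters 44 and 5 (-0.13). Psmb3, a proteasome subunit gene, was among the higher ones, with 53.2, 60.9 and 54.1 CPM on BGI and 44.3, 51.4 and 44.9 CPM on Illumina (0.26). Ccne2, the gene of cyclin E2, had 65.8, 73.7 and 62.4 against 97, 106 and 91.8 CPM (-0.55). Of 369 zinc finger promoter peaks 97 were lower and 25 higher (-0.040), the latter led by Zfp35 (0.32). After removal of the GC trend 7 ribosomal protein promoters were higher and 8 lower, 15 replication and cell cycle promoters higher and 9 lower, and 39 zinc finger promoters higher and 17 lower. The counts were 9 and 7 for respiratory chain, 5 and 3 for proteasome, 2 and 4 for splicing and 7 and 3 for translation promoters. Over all promoter peaks 7.50% were higher and 7.78% lower.

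The core histone list moved away from 0 with the GC term. Its 45 promoter peaks had a median of -0.092 at 53.1% GC, with 20 lower and 1 higher, where promoter peaks of 50% to 55% GC had 0.018 ± 0.0031 and 5.12% lower. The higher one was Hist1h1c (0.13), a linker histone gene, so the list does not hold core histones alone. After removal of the GC trend the ratio was -0.14 and 20 were lower and 0 higher, beside 7.78% lower over all promoter peaks. Hist2h2aa1 had 13.4, 13.9 and 11.3 CPM on BGI and 18, 20 and 17.6 CPM on Illumina (-0.53), and Hist1h4c 25.3, 24.4 and 24.7 against 32.5, 30.7 and 35.2 CPM (-0.40). Histone genes are near-identical copies, and per the study's methods only uniquely mapped reads were kept. How this filter affected these peaks was not tested.

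The remaining lists were small or mixed. Of 15 housekeeping promoters 8 were lower and 1 higher. Actb, a common reference gene for cytoplasmic actin, had 42.8, 52.6 and 46.3 CPM on BGI and 51.8, 62.9 and 56.4 CPM on Illumina (-0.27 ± 0.045 SE, adjusted p = 9.15e-08, edgeR), a difference visible within each library although the groups overlapped. The Actb call was lost with the GC term (-0.002, adjusted p = 0.986, edgeR) and without the library block (adjusted p = 0.232, edgeR). Gapdh, the glycolytic reference gene, had 47.6, 61.5 and 49.6 against 49.3, 58.9 and 48.5 CPM (0.018, adjusted p = 0.828, edgeR). Of 32 imprinted promoter peaks 11 were lower, led by Igf2 (-0.54), and 3 higher, led by Nnat (0.24). Of 11 germline promoters 3 were lower, led by Ddx4 (-0.52), and 0 higher, and of the 20 genes of the list for the totipotent-like state 2 had a promoter peak, with 0 called. Of 10 fibroblast promoters 3 were lower, led by Twist1 (-0.80), and Vim was higher (0.21).

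The 40 genes of the pluripotency list reported here each had a promoter peak, at mean levels of 6.48 to 87.1 CPM. Their ratio, -0.11 ± 0.022 (SD, n = 3), differed from that of all promoters by -0.001 ± 0.017, less than the spread between libraries. Of the 40, 14 (35%) were lower, 2 (5%) higher and 24 not called, and the 3 libraries were all negative at 19 of them and all positive at 3. In 11 the BGI and Illumina samples did not overlap, which held for 18.5% of all peaks. At Pou5f1 and Esrrb the counted peak was not called, while another peak, at the coding TSS, was called lower (below). With the GC term 2 of the 16 calls, Rif1 and Zfp42, kept their direction and their call, and 14 did not. DESeq2 kept 5 of the 16 calls (Klf4, Lifr, Dnmt3b, Jarid2 and Il6st), and the fit without the library block kept 3 (Klf4, Lifr and Dnmt3b). Another 6 promoters were called only with the GC term, Klf2, Klf5, Tbx3 and Stat3 higher and Nanog and Tdgf1 lower, so that the calls with the GC term were 5 higher and 3 lower. Over all promoter peaks that fit called 7.50% higher and 7.78% lower. Of the 16 calls, 7 were lost without library 3 (Nr5a2, Nr0b1, Gbx2, Zscan10, Nacc1, Rif1 and Cdh1), some of them without another library as well, with adjusted p of 0.0664 to 0.298 (edgeR). The 17 high-CpG promoters had -0.23 ± 0.025 with 12 lower and 0 higher, beside 55.8% lower and 1.31% higher over all high-CpG promoters. The 15 intermediate ones had -0.014 ± 0.043 with 2 lower and 1 higher, beside 19.3% lower and 4.24% higher over that class. The 7 low-CpG ones had -0.077 ± 0.087, with 0 lower and 1 higher, where all low-CpG promoters had 0.026 ± 0.0029, with 5.54% lower and 6.12% higher.

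Among receptor and signalling members, Lifr (above) had the largest difference, and with the GC term it was not called (-0.065, adjusted p = 0.63, edgeR). Il6st, which encodes the LIF co-receptor gp130, had 44.9, 52.2 and 42.9 CPM on BGI and 54.2, 63.3 and 51.2 CPM on Illumina (-0.27 ± 0.045 SE, adjusted p = 1.58e-07, edgeR). Fgf4, the mESC growth factor, had 29.3, 31.1 and 29 against 35.1, 37.1 and 34.3 CPM (-0.25 ± 0.056 SE, adjusted p = 0.000134, edgeR), without overlap. Stat3, the transcription factor of this pathway, had 56.9, 68.3 and 50.6 against 57.7, 63.9 and 51.8 CPM (0.020, adjusted p = 0.796, edgeR) at 65.1% GC. With the GC term Stat3 was called higher (0.22, adjusted p = 1.62e-05, edgeR).

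Among transcription factors, Klf4 had 24.1, 30.6 and 24.5 CPM on BGI and 42.8, 44.1 and 39.1 CPM on Illumina (-0.67 ± 0.056 SE, adjusted p = 1.61e-25, edgeR), a 1.59-fold lower level without overlap, at 77.4% GC. With the GC term its difference was -0.083 and not called (adjusted p = 0.402, edgeR). Its relatives Klf2 and Klf5 were not called at 69.4% and 68.2% GC. Klf2 had 75.2, 87 and 76.7 against 81.3, 93.8 and 78.1 CPM (-0.084, adjusted p = 0.0917, edgeR), and Klf5 85.8, 101 and 77.5 against 83.9, 93.2 and 81.7 CPM (0.028, adjusted p = 0.642, edgeR). With the GC term both were higher, at 0.24 and 0.32. Nr0b1, an orphan receptor gene (-0.28), and Gbx2 (-0.20) were lower. Tbx3, Mycn, Otx2, Prdm14, Sall4 and Tfcp2l1, and also Tcl1, which encodes no transcription factor, were not called, with values from -0.19 (Otx2) to 0.044 (Sall4).

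Chromatin factors and surface molecules of the list varied. Dnmt3b had 16.6, 14.8 and 13.6 CPM on BGI and 20.7, 21.3 and 21.7 CPM on Illumina (-0.51 ± 0.076 SE, adjusted p = 3.15e-09, edgeR), and with the GC term -0.039 (adjusted p = 0.827, edgeR). Jarid2, a Polycomb cofactor gene, had 48.3, 48.1 and 38.1 against 57.5, 59.8 and 49.5 CPM (-0.31 ± 0.046 SE, adjusted p = 1.21e-09, edgeR). Epcam, whose product served in the sort, had 17.1, 15.9 and 13.1 against 19.7, 19.4 and 17.6 CPM (-0.30), and Cdh1, the gene of E-cadherin, 31.8, 29.0 and 27.8 against 36.2, 35.2 and 31.6 CPM (-0.22). Trim28 (-0.20), Nacc1 (-0.24) and Rif1 (-0.16) were lower too. Rif1 was lower at 49.6% GC, and with the GC term it had -0.24. Tet1, a DNA demethylase gene (0.045), and Dnmt3l (-0.075, a peak within 1 kb of Aire as well) were not called.

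The 2 promoters higher on BGI were Zfp42 and Zscan10, a zinc finger gene. Zfp42 had 54.6, 56.1 and 47.1 CPM on BGI and 47.2, 48.5 and 43.5 CPM on Illumina (0.18 ± 0.046 SE, adjusted p = 0.0011, edgeR), higher in 3 of 3 libraries by 0.21, 0.21 and 0.11. Zscan10 had 26, 27.3 and 29.2 against 25, 23 and 25 CPM (0.18 ± 0.063 SE, adjusted p = 0.029, edgeR). Their peaks had 53.2% and 50.1% GC. The stage markers Dppa2, Dppa3, Dppa4, Dppa5a, Tdgf1, Utf1, Lin28a and L1td1 were not called, with values from -0.10 (Dppa5a) to 0.13 (L1td1).

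**Figure D4:**
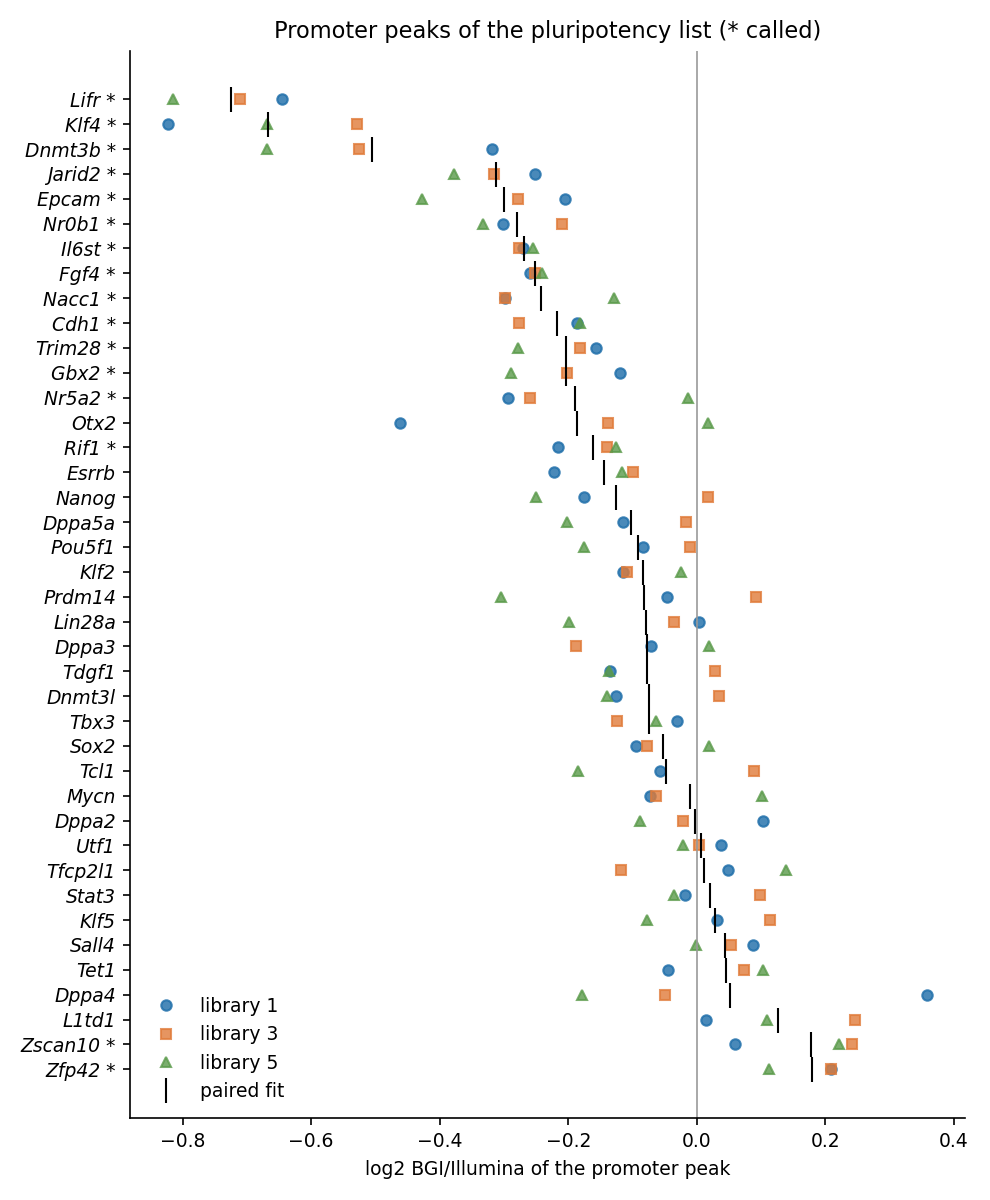
Log2 BGI/Illumina of the promoter peak of the 40 genes of the pluripotency list (horizontal axis), with 1 point for each library and a bar for the paired fit; a star marks the 16 called peaks. Lifr and Klf4 lie lowest, at -0.72 and -0.67, and Zscan10 and Zfp42 highest, both at 0.18.

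The neighbourhoods of the 6 core genes held 98 peaks whose nearest coding TSS was that gene within 150000 bp. Of these, 9 were lower and 2 higher, beside 15.6% lower and 5.78% higher over all peaks. Outside promoters, 2 of 71 were lower and 1 was higher, beside 3.15% and 7.40% of all peaks there, with a median log2 difference of 0.009 beside 0.067 for all peaks outside promoters. Of the 11 calls, 9 were lost without at least 1 of the 3 libraries, with adjusted p of 0.0517 to 0.593 (edgeR), and the other two, the Klf4 promoter peak and its neighbour at -528 bp, were not.

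At Pou5f1, which encodes Oct4, 9 peaks had ratios from -0.30 to 0.11 and 2 were lower. The peak over the TSS (chr17:35505718-35506232) had 14.2, 18.1 and 11.6 CPM on BGI and 16.5, 20.3 and 15.2 CPM on Illumina (-0.25 ± 0.080 SE, adjusted p = 0.0133, edgeR), and with the GC term was not called (-0.076, adjusted p = 0.64, edgeR). The next one upstream (chr17:35505200-35505701) had 10.5, 11.7 and 10.7 against 11.8, 14.7 and 14 CPM (-0.30 ± 0.091 SE, adjusted p = 0.00785, edgeR), and was still lower with the GC term. The strongest promoter peak, centred at -1172 bp, had 28, 31.2 and 31.4 against 29.7, 31.4 and 35.5 CPM (-0.092, adjusted p = 0.272, edgeR). The promoter peak with the highest count was therefore not one of those that differed.

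At Sox2, a partner of Oct4, 26 peaks held 1 lower and 1 higher. The upstream promoter peak had 31.7, 46.9 and 36.8 CPM on BGI and 33.9, 49.5 and 36.3 CPM on Illumina (-0.052, adjusted p = 0.526, edgeR). A peak 666 bp downstream of the TSS, at 67.9% GC, had 8.9, 12.7 and 8.24 against 10.5, 15.6 and 11.6 CPM (-0.34 ± 0.095 SE, adjusted p = 0.00366, edgeR), and with the GC term was not called (-0.057, adjusted p = 0.791, edgeR). The higher peak, 14957 bp downstream and within 1000 bp of another annotated TSS, had 9.84, 8.77 and 11.7 against 8.45, 8.2 and 8.48 CPM (0.27 ± 0.10 SE, adjusted p = 0.0486, edgeR), and with the GC term was not called either (0.20, adjusted p = 0.256, edgeR). At Nanog, 0 of 9 peaks were called; its promoter peak had 21.9, 28.4 and 20.2 against 24.7, 28 and 24.1 CPM (-0.13, adjusted p = 0.168, edgeR) and was called lower with the GC term (-0.20, adjusted p = 0.032, edgeR), and a peak at -36970 bp had the highest value, 0.26 (adjusted p = 0.136, edgeR).

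Esrrb, an orphan nuclear receptor gene, had 33 peaks with 2 lower and 1 higher. The peak at its coding TSS (chr12:86469851-86470353) had 13, 17.7 and 14.9 CPM on BGI and 15.9, 20.8 and 17 CPM on Illumina (-0.23 ± 0.079 SE, adjusted p = 0.0196, edgeR). The peak counted in the pluripotency list lay 34340 bp downstream, at another annotated TSS of the gene and with no coding TSS within 1 kb. It was not called (-0.14 ± 0.062 SE, adjusted p = 0.0864, edgeR). A peak at -22649 bp was higher, with 13.7, 7.53 and 10.7 against 12.5, 5.31 and 8.48 CPM (0.29 ± 0.10 SE, adjusted p = 0.029, edgeR), but not called with the GC term (0.25, adjusted p = 0.106, edgeR). Its ratio had 1 direction in each library although the libraries differed in level. A peak 54927 bp downstream was called lower (-0.26, adjusted p = 0.0370, edgeR), with ratios of -0.50, 0.074 and -0.31 in libraries 1, 3 and 5, so that library 3 did not show the difference.

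At Klf4, 3 of 15 peaks were lower and 0 higher. Next to the promoter peak, a peak at -528 bp had 27.6, 27.5 and 25.1 CPM on BGI and 38.4, 44.7 and 37.6 CPM on Illumina (-0.59 ± 0.056 SE, adjusted p = 1.59e-20, edgeR), and with the GC term it was still lower (-0.29). An exonic peak 1299 bp downstream had 13.7, 13.8 and 10.2 against 16.8, 15.6 and 12.6 CPM (-0.25), and with the GC term -0.007 (adjusted p = 0.977, edgeR). At Nr5a2, 1 of 6 peaks was lower, the promoter peak with 22.5, 24.7 and 26 against 27.6, 29.6 and 26.3 CPM (-0.19 ± 0.063 SE, adjusted p = 0.0177, edgeR). The Nr5a2 ratio was -0.014 in library 5, and the call was lost with the GC term (-0.049, adjusted p = 0.714), without the block (adjusted p = 0.455) and by DESeq2 (adjusted p = 0.455), as well as without library 1 (-0.14, adjusted p = 0.234) or 3 (-0.14, adjusted p = 0.298).

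The peak calls of single samples, which the authors made with MACS2, gave a second readout. At each peak the highest fold enrichment of a called summit and the width of the called interval were compared between platforms. Summits were higher on BGI outside promoters, by a log2 ratio of 0.12 ± 0.025 (SD, n = 3), and lower at high-CpG promoters, by -0.12 ± 0.019, in 3 of 3 libraries each. Low-CpG promoters had 0.086 ± 0.022 and distal high-CpG peaks -0.20 ± 0.029. Summit ratios lay above count ratios in each of these 4 classes. Intervals were narrower on BGI by 2.27% ± 1.93 over all peaks, with medians of -4.50%, -1.02% and -1.29% in libraries 1, 3 and 5. The width changed alike at high-CpG promoters (-2.49% ± 1.42) and outside promoters (-2.02% ± 2.32), and library 1 had the largest change in both.

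The same classes can be set beside the MEF libraries. On the 24377 promoter peaks of the mESC set with at least 2 CPM in MEFs, the ratio was -0.13 ± 0.0059 in MEFs and -0.13 ± 0.015 in mESCs. On 13246 high-CpG promoter peaks it was -0.23 ± 0.011 and -0.21 ± 0.024. Peaks of 70% to 75% GC had -0.42 ± 0.016 in MEFs and -0.39 ± 0.044 in mESCs, and distal low-CpG peaks 0.12 ± 0.0080 and 0.074 ± 0.0043. The last gap was larger than either SD, but the ratios of the cell types were not computed alike. MEF ratios used CPM scaled over all 12 samples with 0.1 added, and mESC ratios used a prior count of 2. The gap, higher in MEFs, also ran opposite to the median difference of the interaction test below. That median was 0.11, higher in mESCs, on another peak set. The gap itself was not tested.

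Peak by peak, the platform ratio was tested for a difference between cell types on the 91354 peaks of both cell types on BGI, with library as a block. The test called 353 peaks (0.386%), of which 346 (0.379% of all) had a higher ratio in mESCs. The median difference over all 91354 peaks was 0.11 in the same direction, while the test of each peak was against 0. Among these 346 the median ratio was -0.39 in MEFs and -0.009 in mESCs. The 5 with the lowest p were promoters with 67.5% to 79.1% GC: Usp34, Wtap, a subunit gene of the RNA methyltransferase complex, Rbpj, the Notch effector, Strbp and Ank1. Wtap had 28.6, 29.3 and 30.8 CPM on BGI and 50, 55.3 and 52.1 CPM on Illumina in MEFs, and 34.9, 39.9 and 36.6 against 46.3, 50.9 and 50 CPM in mESCs (difference of log2 ratios 0.42 ± 0.070 SE, adjusted p = 0.0018, edgeR). The count depended on the libraries: it was 1 without MEF library 1, 51 without MEF library 2, 340 without MEF library 4, and 25, 0 and 42 without mESC library 1, 3 and 5. It was 0 by DESeq2, 0 without the block and 2 on the mESC peak set.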

How the data were processed

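Omni-ATAC-seq of 3 mESC libraries was sequenced on both platforms. The p-values of the paired fit rest on how far the platform ratio varied between these libraries. Differences in level between the libraries are taken up by the block. Per the study's methods, the authors trimmed reads and aligned them to GRCm38.p6 with Bowtie2. They discarded duplicate and mitochondrial reads, kept uniquely mapped ones and then drew 45 M reads per mESC sample and 60 M per MEF sample. The deposited tables hold raw counts of reads per peak, made by the authors with the subread package and not normalized. Columns named without a platform were taken as Illumina. The authors' MACS2 calls give a summit's fold enrichment as a ratio over background and a -log10 p, which was not used here. The deposited lists of reproducible peaks give positions as GTF coordinates and hold no scores.

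Counts were tested with edgeR 4.0.16 (R 4.3.3): TMM scaling, the default expression filter, library number as a block, the quasi-likelihood F test, two-sided, and adjusted p under 0.05. The block rests on the shared DNA of a library: deviations from the group mean correlated at 0.654, 0.723 and 0.514 across peaks for the same number and at -0.509 to -0.114 for different ones. The deviations of a platform cancel out at each peak, so positive values for the same number bring negative ones for different numbers. No 2 samples held identical counts. The fits were tested on simulated counts first. Ratios per library are log2 CPM with a prior count of 2. Class medians have no p, since the members and lists were chosen with earlier results of these data known. Peaks were annotated with GENCODE vM21, and GC content and CpG were read from the GRCm38.p6 sequence, which 66993 of 67063 peaks (99.9%) have. The GC term is a smooth trend of each sample on peak GC content, entered as an offset. MEF ratios used CPM scaled over all 12 samples with 0.1 added.

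Peaks were named by a fixed rule: the 10 lower and 10 higher called peaks with the largest change, at least 2 CPM and 1 sign in 3 libraries; every pluripotency promoter; the promoter, called and extreme peaks of 6 core loci; up to 3 called promoters in each direction per list; Actb and Gapdh; and 5 interaction peaks in each direction. The alternatives were no block, DESeq2 1.42.0, other size factors, the stated depths, other filters, the GC term, leaving out each library and other promoter windows. Counting error sets the precision of single peaks. Some items, 1 of them a gene of the pluripotency list, which was left out of its counts, are not reported here.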

Additional observations from a re-analysis of the deposited data

Results flagged for a closer look

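The platform ratio differed between mESCs and MEFs, by the interaction test of edgeR, at 353 of 91354 peaks, 346 of them with a higher ratio in mESCs, where the median difference over all peaks was 0.11. An unadjusted p under 0.05 was reached by 12094 peaks (13.2%).

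The mESC minus MEF differences of the named promoters were 0.66 at Usp34, 0.42 at Wtap, 0.34 at Rbpj, 0.52 at Strbp and 0.63 at Ank1. In the other direction 7 peaks were called. Those with the lowest p were peaks nearest Nfam1 (-2.79), Gnaz (-0.99), Actr2 (-1.89) and Col6a5 (-1.80), and a peak at chr14:78386931-78387432 that is not in the mESC set (-5.73). Of these, 3 rest on very low MEF counts: the peaks near Nfam1, Actr2 and Col6a5 had 0 to 0.304 CPM on Illumina and 0.204 to 1.05 CPM on BGI in MEFs. The chromosome 14 peak had 0 CPM in 3 of 3 mESC samples on BGI and 0.351, 0 and 0.455 CPM on Illumina. The fitted value of such a peak depends on the prior count and is no bound. The cause of these differences was not tested.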

How the results depend on the processing

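The count of 14304 peaks was 2164 without the replicate block, 3557 by DESeq2 (135 higher and 3422 lower), 5766 with the GC term, 2092 at a log2 difference of at least 0.5, and 9118 to 11176 without 1 library (9118 without library 3). DESeq2 gave an adjusted p to 38459 peaks. All 2164 calls made without the block were among the 14304. Other size factors, the stated depths and other filters kept the count within 1.5 times.

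Promoter minus other peaks went from -0.17 to -0.019 with the GC term and to -0.15 at a window of 2 kb, and was -0.18 to -0.16 without 1 library. High-CpG minus low-CpG promoters went from -0.24 to -0.038 with the GC term and to -0.27 with classes read from the peak, and was -0.25 to -0.22 without 1 library. Pluripotency minus all promoters went from -0.001 to -0.025 with the GC term, and was -0.010 to 0.006 without 1 library.

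The 353 interaction peaks became 584 on the peaks of both cell types on Illumina, 20 with a mean count of at least 50, 0 at the stated depths (6264 at an unadjusted p under 0.05), 0 by DESeq2 (2530), 0 without the replicate block (2386), 2 on the mESC peaks, an alternative chosen after seeing the data, and 0 to 340 without 1 library (7501 at an unadjusted p under 0.05 in the lowest case).

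Of the 150 named peaks, 120 were called. Of these calls, 69 were lost without the replicate block, 62 with the GC term and 15 to 30 without 1 library. DESeq2 gave an adjusted p to 93 of the 120, of which 44 lost their call. With the GC term 17 of the 150 changed sign, 4 of them called in neither fit. The other 13 were Klf2 (0.24), Tbx3 (0.11), Fgf4 (0.011), Gbx2 (0.008), Il6st (0.077), Nacc1 (0.006), Jarid2 (0.083), Prrx2 (0.15), Cdc42bpa (0.019), Mbd2 (0.029), Jak2 (0.060), Ctnnb1 (0.049) and Dazl (0.25). Under the other alternatives up to 4 peaks changed sign, none of them called in either fit. The number of libraries and, for single peaks of 2 to 10 CPM, counting error limit what can be told apart.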

Other observations

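Peaks at low counts leaned toward BGI. The tenth of peaks with the lowest mean counts (45.7 to 90 reads) had a ratio of 0.11 ± 0.011 (SD, n = 3) at a median GC content of 47.6%, and the tenth with the highest counts had -0.074 ± 0.016 at 61.8%. With the GC trend removed the values were 0.042 and 0.050. A peak entered the set if it was listed on either platform: the 6375 peaks listed on BGI only had 0.11 ± 0.024 and the 5116 listed on Illumina only -0.17 ± 0.028, directions which the listing itself favours.

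Wide peaks had a lower ratio. The 1683 peaks over 700 bp had -0.16 ± 0.010 at 59.4% GC and -0.075 with the GC trend removed, beside 0.005 ± 0.0039 for the 32153 peaks of up to 510 bp. The autosomes and the X chromosome differed little, with medians of the log2 difference from -0.010 (X chromosome) to 0.024 (chromosome 3).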
